A study of Mus musculus with 40 samples.

Results

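Type I interferon-stimulated genes are the antiviral genes that cells switch on when interferon binds its receptor. The 42 genes described here were found in the expression table by their gene symbols, from a list of such genes by name. Each symbol matched exactly 1 of the 27179 genes in the table, and all 42 genes lay above the limit on low expression at every time. They were measured by poly(A) RNA sequencing in bone marrow-derived macrophages (BMDMs), which are macrophages grown in culture from bone marrow with M-CSF, a growth factor supplied by L-cell conditioned medium. Cells came from 4 WT and 4 Cpeb4-/- adult male mice on a mixed C57BL/6J and 129 strain background. Both genotypes were left untreated (0 hr) or were given 10 ng/ml LPS of E. coli 0111:B4 for 1, 3, 6 or 9 hr. This gave 40 libraries, 4 for each genotype and time, and all 5 times came from the same mice. The Cpeb4-/- mice lack Cpeb4, which encodes an RNA-binding protein of cytoplasmic polyadenylation, in the whole animal and not only in macrophages. Mice of WT are numbered 25, 69, 87 and 88 and those of Cpeb4-/- 2, 3, 55 and 62, and the 4 values of a group are given in this order.

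Macrophages sense LPS, a glycolipid on the surface of Gram-negative bacteria, through the receptor TLR4. One branch of TLR4 signalling switches on NF-kB target genes directly. The other, through the adaptor TRIF (gene Ticam1), the kinases TBK1 and IKK epsilon and the factor IRF3, switches on Ifnb1, which encodes interferon beta. Secreted interferon beta then acts back on macrophages through its receptor and the kinases JAK1 and TYK2, and STAT2 with IRF9 acts at interferon-stimulated response elements (ISREs) in the promoters of its target genes. Some of these genes can also be switched on by IRF3 itself. Their products bind or degrade viral RNA, hold viruses at membranes, sense RNA, or attach the ubiquitin-like protein ISG15 to other proteins.

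The ISRE is the sequence through which interferon reaches these genes, so its core was looked for in their promoters. A RefSeq promoter window (GRCm38.p6), from 250 bases before to 50 bases after an annotated transcription start, was found for 32 of the 42 genes by gene identifier. The ISRE core was searched as GAAA, any 2 bases and GAAA, on either strand. It occurred in 13 of the 32 genes (40.6%) and in 3.99% of all 27025 genes with a window. The gamma-activated site, TTC, any 3 bases and GAA, which reads the same on both strands, occurred in 9 of the 32 genes (28.1%) and in 9.55% of all genes. A selection of the cores that lie before the start follows, from early and late genes of several roles, on the strand of the gene and with the core in capitals. A core on the opposite strand reads TTTC, any 2 bases and TTTC.
Isg15, chr4:156200871-156200900, minus strand: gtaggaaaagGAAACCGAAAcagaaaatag
Ifit1, chr19:34640775-34640804, plus strand: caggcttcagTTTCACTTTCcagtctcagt
Ifit1, chr19:34640794-34640823, plus strand: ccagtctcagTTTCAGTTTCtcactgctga
Ifit3, chr19:34583363-34583392, plus strand: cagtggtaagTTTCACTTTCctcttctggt
Ifit3, chr19:34583397-34583426, plus strand: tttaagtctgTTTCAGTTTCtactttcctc
Rsad2, chr12:26456553-26456582, minus strand: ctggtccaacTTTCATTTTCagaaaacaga
Oas3, chr5:120777715-120777744, minus strand: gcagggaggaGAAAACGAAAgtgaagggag
Bst2, chr8:71537577-71537606, minus strand: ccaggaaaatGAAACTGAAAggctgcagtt

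The first base of these cores lay at −72 from the annotated start in Isg15, at −104 and −85 in Ifit1, at −156 and −122 in Ifit3, at −120 in Rsad2, at −75 in Oas3 and at −124 in Bst2. In Isg15 and Bst2 other matches overlapped the one shown. A match is a description of the sequence and not a measured binding site, and a gene without a match lacks only these letters in this window. The genes with a core included early ones (Ifit1) and late ones (Bst2), as measured below.

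Some facts of the series bear on what follows. The table holds rlog values, a log2 scale, and not reads, so depth is not in it. Which exons the Cpeb4-/- allele lacks is not given in the sources used here, so the level of Cpeb4, a sum over the whole gene, is no full check of the labels. It was lower in Cpeb4-/- at 6 hr (difference −1.27, SE 0.19, adjusted p = 0.0011) and overlapped between the genotypes at the other 4 times. All 10 macrophage markers, Adgre1, Csf1r and Cd68 among them, were above the limit in all 40 libraries. Of the 8 granulocyte markers, Ly6g, Mpo and Elane were below it in every library, S100a8 and S100a9 above it in all 40, and Ngp, Camp and Ltf above it in 39, 33 and 16. No cage held both genotypes, so cage and genotype cannot be told apart, and each of the 2 batches held 2 mice of each genotype. In bulk RNA, fewer cells that express a gene and less RNA of it per cell cannot be told apart.

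LPS raised all 42 genes in WT, little in the first hour and in most of them up to 6 hr. At 1 hr 9 genes were raised in WT and 2 were lowered, where 17.3% of all genes tested were raised and 16.6% lowered. At 3, 6 and 9 hr all 42 were raised against untreated cells, where 32.5%, 38.7% and 35.9% of all genes were. From 1 to 3 hr all 42 were raised (28% of all genes). The list was chosen as genes that interferon induces, so their rise with LPS is the check of the list and not a result about it. The rise from untreated to the highest mean was 1.18 to 4.63 on the log2 scale, with a median of 2.41. Rsad2, which encodes the antiviral protein viperin, rose the most (4.63), followed by Cmpk2 (4.41), a nucleotide kinase encoded next to it on chromosome 12, Mx2 (4.28) and Ifit2 (4.23). Ifitm3, which encodes a membrane protein that blocks virus entry, rose the least (1.18).

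The 9 genes that moved in the first hour in WT were Isg15 (0.74), Oasl1 (0.69), Ifih1 (0.49), Rsad2 (0.43), Ifit1 (0.39), Parp14 (0.29), Mx2 (0.26), Isg20 (0.22) and Rtp4 (0.20). Isg15 encodes the ubiquitin-like modifier itself, Oasl1 a protein of the oligoadenylate synthetase family that lacks its enzyme activity, and Ifih1 the RNA sensor MDA5. The 2 genes that fell were Trim21, a ubiquitin ligase and antibody receptor, by 0.43 (SE 0.057, adjusted p = 3.2e-06) and Pml, the organiser of nuclear bodies, by 0.28 (SE 0.057, adjusted p = 0.00063). Both also fell in Cpeb4-/-, Trim21 by 0.38 and Pml by 0.20. In Cpeb4-/-, 7 genes were raised at 1 hr (23.8% of all genes) and 2 were lowered (20% of all genes). With the mouse as a block in the fit, 13 were raised there and 3 lowered (27.3% and 22.3% of all genes). The count of early falls is sensitive to scaling: after quantile normalization 13 genes were lowered and 4 raised in WT at 1 hr, where 23.6% and 14.4% of all genes were.

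**Figure D1:**
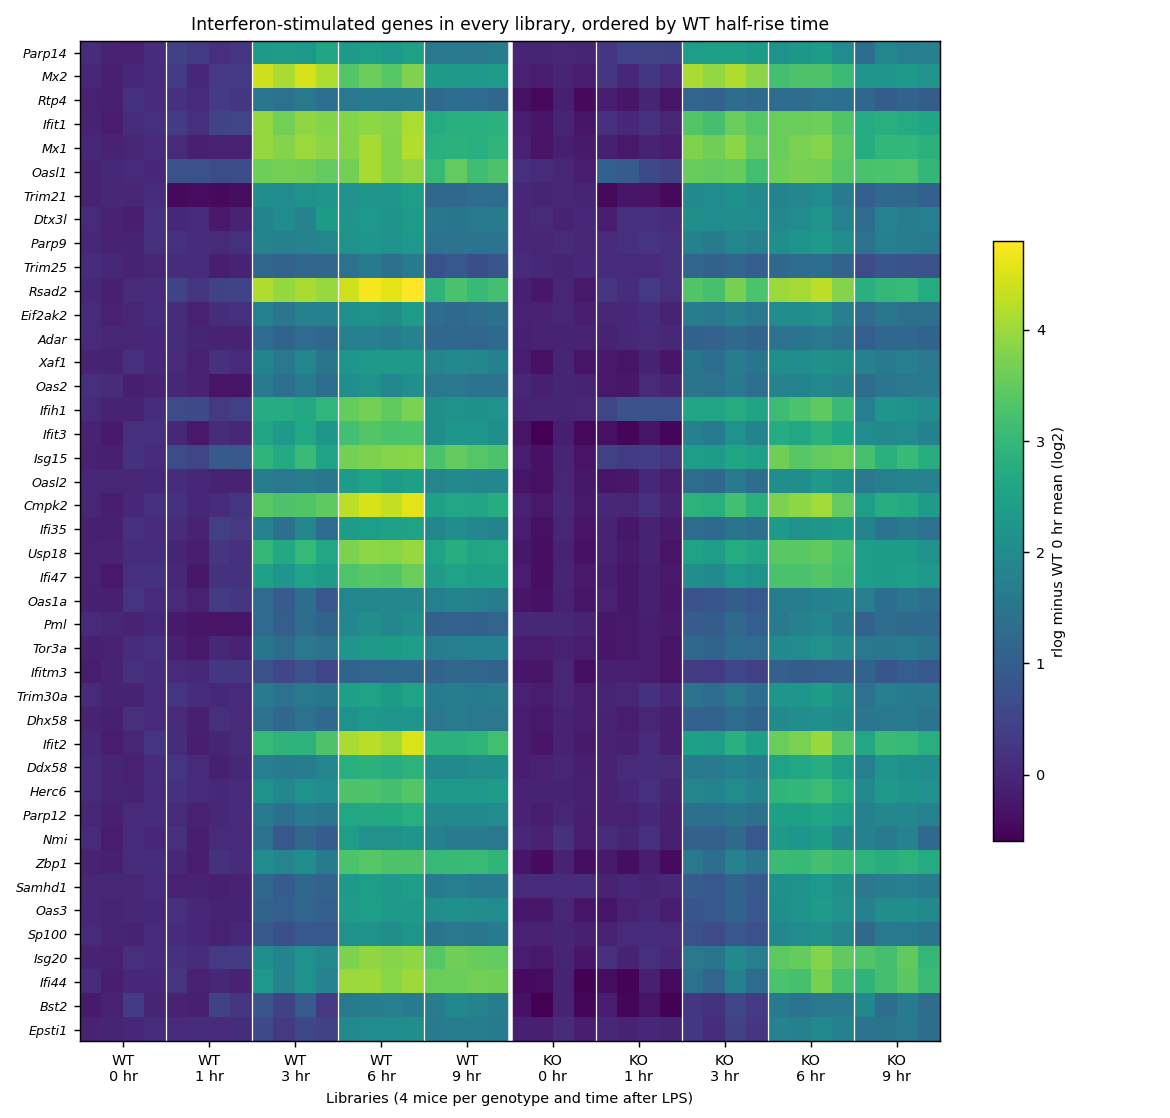
Values of the 42 genes (rows, ordered by WT half-rise time) in the 40 libraries (columns, 4 mice for each genotype and time), as rlog minus the mean of the 4 untreated WT libraries, on a log2 colour scale. Columns at 0 and 1 hr are dark in both genotypes, columns at 6 hr are the brightest for 40 of the 42 genes in WT, and Mx2 is brightest at 3 hr.

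The order of induction was described by the half-rise time, the time at which a gene first crossed the midpoint between its untreated and its highest value on the linear scale, by straight lines between the sampled times. The median over the 42 genes in WT was 3.21 hr, and 17 genes crossed before the 3 hr sample and 25 after it. The SD over the 4 mice was 0.21 hr at the median of the genes and at most 0.58 hr. The order of near neighbours is thus uncertain, while the first and the last differ beyond their spread. With no sample between 1 and 3 hr or between 3 and 6 hr, a half-rise time rests on 1 straight line, and on the log2 scale the median came to 2.44 hr.

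Parp14, Mx2 and Rtp4 had the earliest half-rise times in WT, at 1.96 ± 0.02, 1.99 ± 0.00 and 2.08 ± 0.16 hr (SD, n = 4). The straight line places a gene that moves little by 1 hr and is at its height by 3 hr near the middle between these samples. The small SDs of Parp14 and Mx2 thus come in part from the sampling times and are no measure of precision. Parp14 encodes a mono-ADP-ribosyltransferase. Its rlog values in WT were 13.20, 13.04, 13.02 and 13.20 in untreated cells and 15.41, 15.47, 15.39 and 15.70 at 3 hr. They were 15.43, 15.53, 15.39 and 15.61 at 6 hr, so its plateau was reached by 3 hr in WT. Mx2 encodes an antiviral dynamin-like GTPase. It stood at 9.71, 9.57, 9.72 and 9.79 in untreated WT cells and at 14.09, 13.82, 14.16 and 13.83 at 3 hr. By 6 hr it had fallen to 13.05, 13.28, 13.10 and 13.46, and it was the one member of the list that fell from 3 to 6 hr in WT (−0.75, 30.4% of all genes lowered in this step). Rtp4, a chaperone for receptors that also limits viral replication, rose from 12.23, 12.21, 12.50 and 12.40 to 13.86, 13.75, 13.91 and 13.70 at 3 hr. Its values at 6 hr, from 13.90 to 13.97, were close to those at 3 hr.

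Epsti1, Bst2 and Ifi44 were the latest, at 4.26 ± 0.10, 4.16 ± 0.41 and 4.09 ± 0.13 hr. Bst2 encodes tetherin, which holds budding viruses at the cell surface. Its WT values were 12.80, 12.90, 13.35 and 12.97 in untreated cells and 13.83, 13.47, 13.96 and 13.30 after 3 hr. They reached 14.59, 14.68, 14.73 and 14.65 after 6 hr and 14.70, 14.93, 14.82 and 14.67 after 9 hr. It is the single gene of the list whose WT mean was highest at 9 hr. Epsti1, an interferon-induced gene first known from epithelial-stromal contact, lay at 11.36, 11.40, 11.46 and 11.52 in untreated WT cells and at 12.03, 11.76, 12.01 and 11.89 at 3 hr. It then rose to 13.39, 13.45, 13.45 and 13.52 at 6 hr. Only 13.3% of its WT rise had been reached at 3 hr, against 93.7% for Ifit1 and 100% for Mx2.

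By role, the membrane and other antiviral effectors had a median half-rise of 2.53 hr and the 3 PARP proteins one of 2.43 hr. The RNA and nucleotide effectors came at 3.18 hr, the ubiquitin and ISG15 system at 3.11 hr, the RNA sensors at 3.43 hr and the nuclear body and other genes at 3.34 hr. The earliest member of a role came between 1.96 and 2.22 hr in the first 3 of these roles and in the ubiquitin system, at 2.82 hr among the nuclear body genes and at 2.90 hr among the sensors. The 13 genes with an ISRE core had a median of 3.11 hr (2.10 to 4.16 hr) and the 19 genes with a window but no core one of 3.29 hr (2.19 to 4.26 hr). For comparison, 16 early NF-kB target genes had a WT median of 0.53 hr, and 15 of 16 GBP and IRG genes, the interferon-inducible GTPases, one of 3.52 hr. The straight line gives 0.5 hr to any gene that is highest at 1 hr, as 8 of the 16 NF-kB genes were in WT. The value of 0.53 hr thus lies near the lowest that these sampling times allow and is not a measured time.

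**Figure D2:**
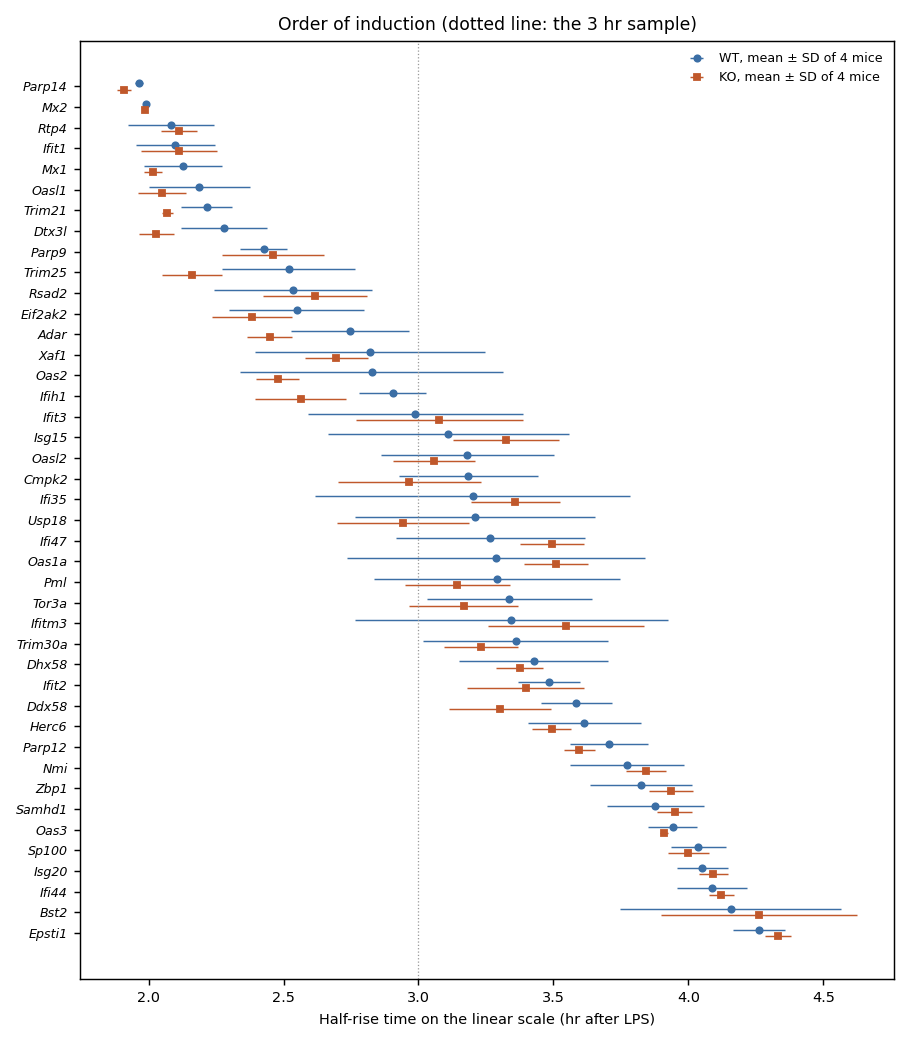
Half-rise time of each of the 42 genes (hr after LPS, linear scale) as mean ± SD of 4 mice, with WT as circles and Cpeb4-/- (KO) as squares, ordered by the WT mean. The WT means run from 1.96 hr for Parp14 to 4.26 hr for Epsti1, and the genotypes overlap for most genes.

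In WT, 40 of the 42 genes had their highest mean at 6 hr. From 3 to 6 hr 37 genes were raised further (33.3% of all genes), and Ifit1, Mx1, Rtp4 and Parp14 did not pass the test in either direction. From 6 to 9 hr 39 genes fell (27.9% of all genes) and 0 rose (23.5% of all genes), and Oas1a, Bst2 and Ifitm3 did not pass. At 9 hr a median of 52.3% of the WT rise was left on the linear scale, from 21.9% for Mx2 to 100% for Bst2. Among the strongly induced genes Cmpk2 kept 25.3% and Rsad2 31.8% of the rise at 9 hr, while Ifi44 kept 77.4% and Isg20, an exonuclease that degrades viral RNA, 78.6%.

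The comparison of the genotypes asks whether macrophages that lack Cpeb4 express these genes at other levels or times. At 6 hr all 42 means were lower in Cpeb4-/- (54.5% of all genes). Of the 42 genes 32 passed the test as lower and 0 as higher (limma, adjusted p under 0.05), where 9.92% of all genes tested were lower and 6.4% higher. The median difference was −0.24 (log2), that is 15.6% lower, against −0.015 over all 13039 genes tested. Single genes were up to 34.7% lower. The largest differences were those of Cmpk2 (−0.61), Ifi44 (−0.60), Rsad2 (−0.60), Ifit2 (−0.57) and Ifit3 (−0.56). In 26 of the 42 genes the highest Cpeb4-/- value was under the lowest WT value, where 12% of all genes had this order.

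Highly expressed genes as a whole were lower in Cpeb4-/- at 6 hr, and the 42 genes are highly expressed then. Of the 1662 genes tested whose mean level lay within the members' range of 11.9 to 17.5, 25.9% passed the test as lower and 5.23% as higher. Their median difference was −0.075, and 72% of them had a lower mean in Cpeb4-/-, against 54.5% of all genes. Quantile normalization, which forces the libraries to one distribution, left 19 members lower and 0 higher at 6 hr, where 7.63% of all genes were lower and 7.87% higher. The sum of the macrophage markers moved in the same direction: at 6 hr it was 19.29 to 19.36 in WT and 18.96 to 19.17 in Cpeb4-/-, and in untreated cells 19.07 to 19.37 and 18.75 to 18.99. The most abundant of these markers, Lyz2, which encodes lysozyme, averaged 18.33 in WT and 17.95 in Cpeb4-/- at 6 hr. Itgam went the other way then (15.01 and 15.12). The summed level of the 8 granulocyte markers at 6 hr overlapped between the genotypes, from 7.56 to 8.06 in WT and from 7.66 to 7.97 in Cpeb4-/-. The B cell, T and NK cell and stromal markers overlapped then too. The dendritic cell markers did not (7.26 to 7.50 in WT and 7.16 to 7.25 in Cpeb4-/-). Nor did the mast cell markers (3.98 to 4.10 and 3.31 to 3.65), of which 3 of 4 were below the limit in every library. In untreated cells the dendritic, B and mast cell sums were lower in Cpeb4-/- and the T and NK cell sum higher, each without overlap. The part of cell composition or of level in the members' differences was not tested.

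At the other times fewer genes passed, in the same direction. At 0 hr none of the 42 passed by limma, the one tool run, where 0.565% of all genes were lower and 0.741% higher. Of the 42 means 40 were lower in Cpeb4-/- (48.4% of all genes), with a median of −0.15. By limma 22 of the 42 genes had an unadjusted p under 0.05, and so had 2306 of all 13095 genes tested. The 42 genes were measured in the same mice, so these counts are not separate evidence. At 1 hr Ifit3 and Rtp4 were lower (0.938% of all genes), and 30 means were (47.1% of all genes). At 3 hr Ifit1, Ifit2, Ifit3, Rsad2, Cmpk2 and Ifi44 were lower (1.87% of all genes), and 40 means were (48.3% of all genes). At 9 hr Zbp1, Isg15, Usp18, Ifi35 and Ifi44 were lower (3.22% of all genes), and 36 means were (49.0% of all genes). Of the 2020 genes within the members' range of levels at 9 hr, 9.46% were lower and 61.8% had a lower mean, so the count of 5 of 42 was near the share of genes of like level. No member was higher at any of the 5 times, where 0.976% (1 hr), 1.81% (3 hr) and 4.69% (9 hr) of all genes were. The median differences for 1, 3 and 9 hr were −0.10, −0.20 and −0.09, while the median of all genes tested stayed between −0.015 and 0.016 at each of the 5 times. The genotypes were apart in this direction for 3 genes (0 hr), 8 genes (1 hr), 7 genes (3 hr) and 10 genes (9 hr), where 5.04%, 8.11%, 6.58% and 8.51% of all genes were.

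These smaller counts depend on the fit and on single mice. With all 40 libraries in one fit and the mouse as a random block, 5, 15, 17, 31 and 10 genes were lower at 0, 1, 3, 6 and 9 hr (1.45%, 15.6%, 5.47%, 9.9% and 8.72% of all genes), and 1 was higher at 1 hr and 1 at 9 hr (17.4% and 9.43% of all genes). Without the filter on low values no member passed at 0, 1, 3 or 9 hr and 14 were lower at 6 hr. For the counts without the filter and for those that follow, the share of all genes is not given here. They show how far the members' count moved and not whether all genes moved with it. Without WT mouse 69, 16 genes were lower at 1 hr. The 3 hr count was 1 without mouse 2, 3, 25 or 62 and 16 without mouse 88. The 9 hr count was 14, with 4 genes higher, without mouse 2, from 0 to 2 without any one of the other mice, and 13 with batch as a covariate. At 6 hr the count was between 21 and 35 with any 1 mouse left out, and 11 of the 32 genes passed under all 15 alternatives: Ifit3, Adar, Rsad2, Cmpk2, Rtp4, Usp18, Herc6, Trim21, Ifi44, Xaf1 and Tor3a. A further 10 passed under 8 or fewer of the 15: Oas1a, Oas2, Samhd1, Isg20, Mx1, Ddx58, Trim30a, Dtx3l, Ifi35 and Epsti1.

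**Figure D3:**
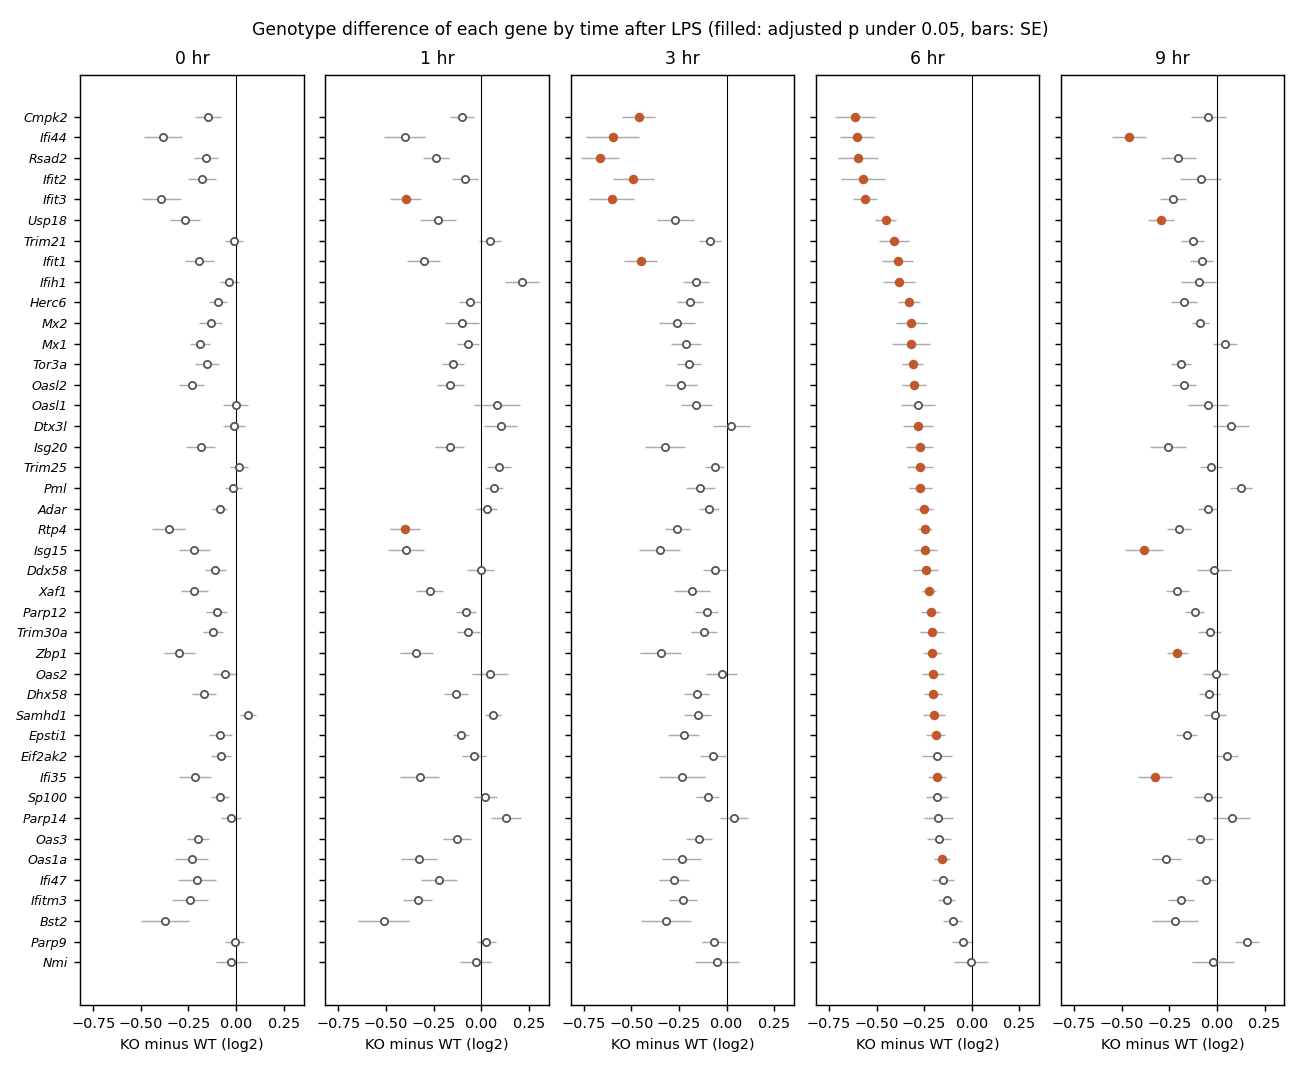
Difference between Cpeb4-/- (KO) and WT in mean rlog (log2) for each of the 42 genes at 0, 1, 3, 6 and 9 hr, with SE bars, genes ordered by the 6 hr difference and filled points for an adjusted p under 0.05. All 42 points at 6 hr lie left of 0 and 32 are filled, against 0, 2, 6 and 5 in the panels of 0, 1, 3 and 9 hr.

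Within batch 1 the median differences of the 42 genes over the 5 times were −0.24, −0.18, −0.24, −0.30 and −0.10. Within batch 2 they were −0.04, −0.01, −0.12, −0.21 and −0.11. At 6 hr 41 genes were lower in both batches, and Nmi was lower in batch 1 (−0.23) and higher in batch 2 (0.22). The difference before LPS thus lay mostly in batch 1, while that at 6 hr was present in both. Mean log2 level of the 42 genes above untreated WT was 2.71 to 2.86 in the 4 WT mice at 6 hr and 2.39 to 2.63 in the 4 Cpeb4-/- mice, without overlap.

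Among the RNA and nucleotide effectors, 10 of 13 were lower at 6 hr. The IFIT proteins bind the 5′ ends of foreign RNA, and their genes Ifit1, Ifit2 and Ifit3 lie side by side on chromosome 19. Ifit2 stood at 16.39, 16.53, 16.36 and 16.78 in WT at 6 hr and at 15.86, 16.00, 16.24 and 15.67 in Cpeb4-/-, with no overlap (−0.57, SE 0.12, adjusted p = 0.0065). At 3 hr it was 15.29, 15.19, 15.18 and 15.57 in WT and 14.75, 14.68, 15.11 and 14.73 in Cpeb4-/-, again with no overlap (−0.49, SE 0.11, adjusted p = 0.040). At 9 hr the groups overlapped and the difference was −0.08. Ifit3 was lower at 1, 3 and 6 hr (−0.40, −0.60 and −0.56), and Ifit1 at 3 and 6 hr (−0.45 and −0.39). Ifit3 has a near-identical neighbour, Ifit3b, which was also lower at 3 and 6 hr (−0.65 and −0.66), and how reads were shared between the copies is uncertain.

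The genes of the oligoadenylate synthetase family differed less at 6 hr than the 3 IFIT genes. The active enzymes of this family make the messenger that activates RNase L, and Oasl1 lacks that activity. At 6 hr Oas1a (−0.15), Oas2 (−0.20) and Oasl2 (−0.30) passed, and Oas3 (−0.17, adjusted p = 0.077) and Oasl1 (−0.28, adjusted p = 0.0502) did not. Oas1a and Oas2 kept their calls in 4 and 3 of the 15 alternatives. Oas1a belongs to a cluster of near copies, whose reads may be split. Adar, the RNA-editing enzyme (−0.25), Zbp1, the sensor of Z-form nucleic acid (−0.21), Samhd1, which degrades nucleotides (−0.20), and Isg20 (−0.27) were lower, while the kinase PKR, encoded by Eif2ak2, was at −0.18 (adjusted p = 0.15).

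Of the 7 membrane and other antiviral effectors, a mixed group that includes the nucleotide kinase gene Cmpk2, 5 were lower at 6 hr. Cmpk2 stood at 16.32, 16.53, 16.36 and 16.64 in WT at 6 hr and at 15.80, 15.93, 16.10 and 15.56 in Cpeb4-/-, without overlap (−0.61, SE 0.10, adjusted p = 0.0025). Untreated, it was at 12.04, 11.92, 12.07 and 12.20 in WT and 11.95, 11.82, 12.05 and 11.82 in Cpeb4-/-, and at 9 hr at 14.55, 14.67, 14.65 and 14.80 and 14.48, 14.82, 14.75 and 14.44. So the groups overlapped before LPS and again at 9 hr. Rsad2 stood at 17.55, 17.87, 17.72 and 17.92 in WT and at 17.13, 17.22, 17.39 and 16.93 in Cpeb4-/- at 6 hr (−0.60, SE 0.10, adjusted p = 0.0030). At 3 hr it was 17.29, 17.09, 17.25 and 17.11 against 16.48, 16.37, 16.83 and 16.41 (−0.66, SE 0.10, adjusted p = 0.011). Its groups were apart at both times. Rsad2 and Cmpk2 are neighbours on chromosome 12, so they are not independent examples.

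Mx1 and Mx2 were lower at 6 hr by 0.32 each, and Rtp4 was lower at 1 and 6 hr (−0.40 and −0.25). At 6 hr Mx2 was 12.88, 12.98, 12.98 and 12.77 in Cpeb4-/-, all below the lowest WT value of 13.05, and Rtp4 was 13.67, 13.66, 13.74 and 13.70, all below the lowest WT value of 13.90. Bst2 (−0.10, adjusted p = 0.20) and Ifitm3 (−0.13, adjusted p = 0.056) did not pass. In Cpeb4-/- Bst2 had values of 12.67, 12.42, 12.93 and 12.51 in untreated cells and 13.26, 13.19, 13.53 and 13.32 after 3 hr. They were 14.60, 14.47, 14.56 and 14.63 after 6 hr and 14.93, 14.36, 14.61 and 14.34 after 9 hr. Its difference was thus larger before LPS (−0.37) and at 1 hr (−0.51) than at 6 hr, and it passed at no time. Ifitm3 belongs to a family of similar genes. Its relative Ifitm1, which is not in the list, went the other way, higher in Cpeb4-/- at 6 and 9 hr (0.67 and 0.61).

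All 3 RNA sensors were lower at 6 hr: Ifih1 (−0.38), Ddx58, which encodes RIG-I (−0.24), and Dhx58, which encodes LGP2 (−0.20). None of the 3 passed at any other time. Ifih1 was at 0.21 at 1 hr, on the other side of 0.

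All 7 genes of the ubiquitin and ISG15 system were lower at 6 hr, with a median of −0.28, and the calls held under all 15 alternatives for Usp18, Herc6 and Trim21, under 11 for Isg15, 10 for Trim25, 7 for Dtx3l and 5 for Trim30a. Usp18, which removes ISG15 from proteins and also dampens the interferon receptor, was at 13.99, 14.14, 14.10 and 14.23 in WT and 13.68, 13.68, 13.75 and 13.54 in Cpeb4-/-, without overlap (−0.45, SE 0.058, adjusted p = 0.00059). It was lower at 9 hr too (−0.29). Isg15 was lower at 6 and 9 hr (−0.24 and −0.38), Herc6, the ligase that attaches it, at 6 hr (−0.33), and Trim25, Trim30a and Dtx3l at 6 hr (−0.27, −0.21 and −0.28).

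Trim21 stood at 10.46, 10.53, 10.52 and 10.62 in untreated WT cells and 10.54, 10.50, 10.55 and 10.49 in Cpeb4-/-, and the groups overlapped at 3 hr as well. At 6 hr it was at 12.67, 12.80, 12.74 and 12.95 in WT and 12.36, 12.44, 12.56 and 12.17 in Cpeb4-/- (−0.41, SE 0.079, adjusted p = 0.0048). Its mean rose from 3 to 6 hr in WT and fell in Cpeb4-/-, where the fall passed the test (−0.16). Trim21 thus went from no visible difference to one of the larger ones between 3 and 6 hr.

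Of the 3 PARP genes, Parp12 was lower at 6 hr (−0.21), and Parp14 (−0.18, adjusted p = 0.14) and Parp9 (−0.05, adjusted p = 0.59) did not pass. Parp14 in Cpeb4-/- was at 15.26, 15.37, 15.49 and 15.13 at 6 hr, against 15.39 to 15.61 in WT. Parp9 acts with Dtx3l and overlaps it on chromosome 16, and whether counting used strand is not given in the sources used here, so their reads may be mixed.

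Of the 9 nuclear body and other genes, 6 were lower at 6 hr. Ifi44, an interferon-induced cytoplasmic protein, was called at 3, 6 and 9 hr. At 6 hr it was at 12.24, 12.25, 12.08 and 12.25 in WT and at 11.52, 11.47, 11.94 and 11.48 in Cpeb4-/- (−0.60, SE 0.090, adjusted p = 0.0013). At 3 hr the values were 10.52, 10.06, 10.42 and 10.04 and 9.68, 9.40, 10.01 and 9.56, and at 9 hr 11.83, 11.84, 11.90 and 11.88 and 11.16, 11.45, 11.66 and 11.33. The groups did not overlap at any of these times, and mouse 55 was the highest of the Cpeb4-/- mice each time. In untreated cells its difference was −0.39, with overlap. Pml (−0.27), Xaf1, a regulator of cell death (−0.22), Tor3a (−0.31), Ifi35 (−0.18) and Epsti1 (−0.19) were lower at 6 hr. Epsti1 was at 13.23, 13.21, 13.41 and 13.20 in Cpeb4-/-, where mouse 55 overlapped the WT range from 13.39 to 13.52. Sp100, a nuclear body protein (−0.18, adjusted p = 0.055), Ifi47, a GTPase (−0.15, adjusted p = 0.10), and Nmi (−0.01, adjusted p = 0.98) did not pass.

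**Figure D4:**
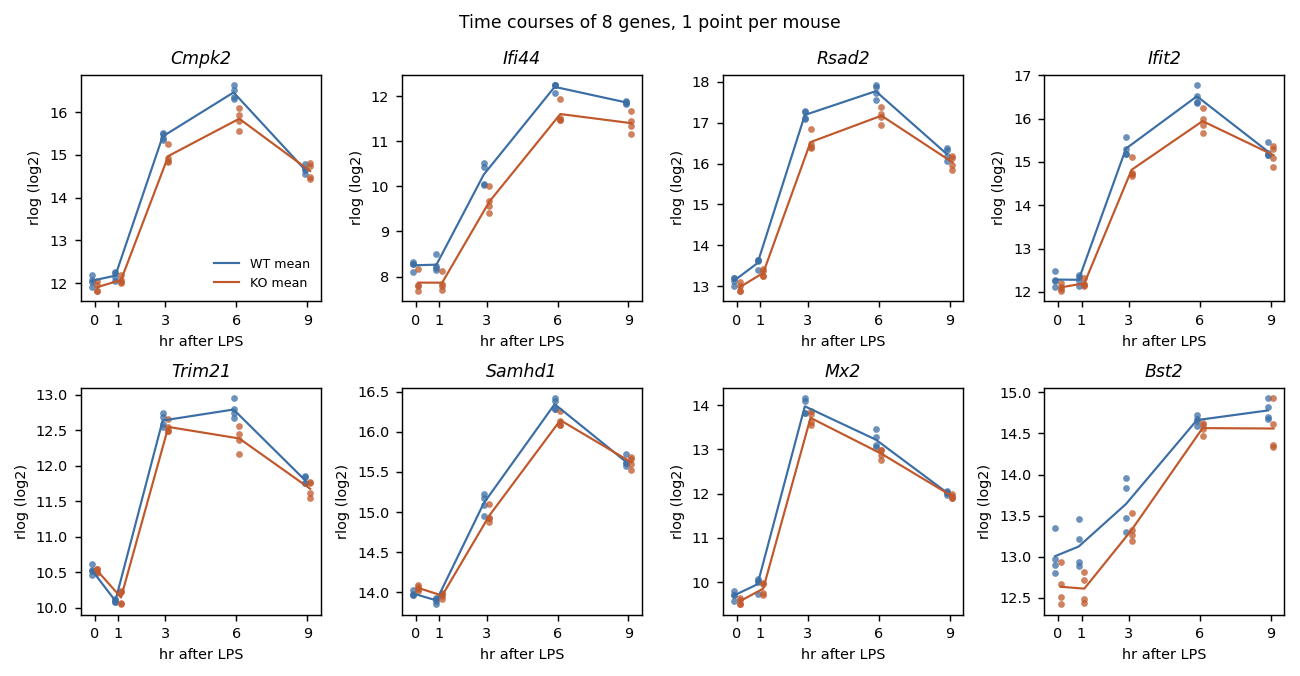
Time courses of 8 genes (rlog, log2, against hr after LPS), with 1 point for each mouse and lines through the means of WT (blue) and Cpeb4-/- (KO, orange). Cmpk2, Rsad2, Ifit2 and Ifi44 are apart at 3 and 6 hr, Trim21 and Samhd1 separate by 6 hr, Mx2 peaks at 3 hr in both genotypes, and Bst2 stays high at 9 hr.

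LPS raised all 42 genes in Cpeb4-/- at 3, 6 and 9 hr as in WT (34.4%, 39% and 36.4% of all genes were raised), and 0 were lowered at 6 hr (40.1% of all genes). From 3 to 6 hr 34 were raised (32.4% of all genes), while Mx2 (−0.81), Trim21 (−0.16) and Parp14 (−0.21) fell (32.1% of all genes). From 6 to 9 hr 39 fell (28% of all genes). The highest mean came at 6 hr for 37 genes and at 3 hr for Mx1, Mx2, Trim21, Dtx3l and Parp14. Of these 5, Mx2 alone peaked at 3 hr in WT, and for Mx1 and Dtx3l the change from 3 to 6 hr did not pass the test in Cpeb4-/-. The median half-rise time was 3.16 hr, and the difference from WT over the genes had a median of −0.05 hr, with 25 genes earlier and 17 later in Cpeb4-/-. For 7 genes the difference exceeded the larger of the 2 SDs, each of them earlier in Cpeb4-/-: Trim25 (−0.36 hr), Ifih1 (−0.34 hr), Adar (−0.30 hr), Ddx58 (−0.28 hr), Dtx3l (−0.25 hr), Trim21 (−0.15 hr) and Parp14 (−0.05 hr). A half-rise time is relative to the highest value of the same mouse, so a lower 6 hr value alone moves it to earlier times.

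The interaction asks whether the change with LPS itself differed between the genotypes. From 0 to 6 hr the rise was smaller in Cpeb4-/- for 3 genes (2.04% of all genes) and larger for 0 (0.901%). They were Cmpk2 (4.41 in WT and 3.94 in Cpeb4-/-, difference −0.47, adjusted p = 0.0498), Trim21 (2.26 and 1.86, −0.40, adjusted p = 0.013) and Samhd1 (2.36 and 2.10, −0.26, adjusted p = 0.037). Samhd1 was at 13.97, 13.98, 13.96 and 14.03 in untreated WT cells and 14.02, 14.04, 14.06 and 14.09 in Cpeb4-/-, and at 6 hr at 16.29, 16.39, 16.28 and 16.42 and 16.09, 16.14, 16.26 and 16.09. It was thus a little higher in Cpeb4-/- before LPS, with overlap, and lower without overlap at 6 hr. With the mouse as a fixed block 10 genes passed (5.33% of all genes), the others being Ifit2, Adar, Rsad2, Ifih1, Herc6, Trim25 and Pml. At 1, 3 and 9 hr against 0 hr no member passed by limma in either direction, where 0.00763%, 0.13% and 0.771% of all genes were lower and 0%, 0.0763% and 0.992% higher. An unadjusted limma p under 0.05 was found for 0, 4 and 2 members, and for 206, 659 and 1569 of all 13103 genes tested. With the block Rsad2 passed at 3 hr (−0.51, adjusted p = 0.018, 0.305% of all genes).

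The gap closed from 6 to 9 hr for part of the list. The fall in this step was smaller in Cpeb4-/- for Cmpk2 (−1.80 in WT and −1.23 in Cpeb4-/-, difference 0.57, adjusted p = 0.019) and Pml (−0.88 and −0.49, 0.39, adjusted p = 0.011), where 1.53% of all genes changed this way and 0.397% the other way, with 0 members. With the mouse as a block 9 genes passed (4.24% of all genes): Cmpk2, Pml, Ifit1, Ifit2, Eif2ak2, Adar, Mx1, Rsad2 and Trim21. A larger share of the rise was left at 9 hr in Cpeb4-/- for 36 of the 42 genes, with medians of 59.6% in Cpeb4-/- and 52.3% in WT. This share too is relative to the highest value.

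Across the 42 genes, the more a gene had risen in WT by 3 hr, the more it was lower in Cpeb4-/- at 6 hr. Pearson's r was −0.61 and Spearman's rho −0.68, as a description over genes that share the same 8 libraries and the same WT mice on both axes. The 14 genes with the largest WT rise at 3 hr (2.10 to 4.28) had a median difference of −0.39 at 6 hr, the middle 14 one of −0.22 and the 14 with the smallest rise (0.49 to 1.47) one of −0.19. At 9 hr the relation was absent (r −0.004, rho −0.047). Genes with and without an ISRE core had similar medians at 6 hr (−0.24 and −0.27).

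**Figure D5:**
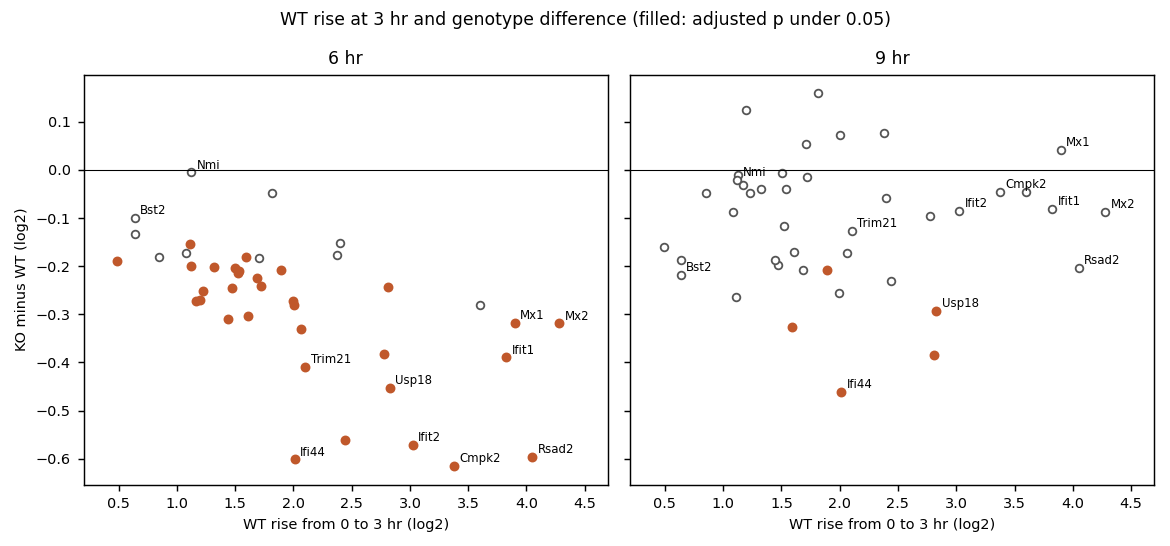
Difference between Cpeb4-/- and WT (log2) at 6 hr (left) and 9 hr (right) against the WT rise from 0 to 3 hr (log2), with 1 point for each of the 42 genes and filled points for an adjusted p under 0.05. At 6 hr the points fall toward the right, with Cmpk2 and Rsad2 at the lower right and Nmi near 0, and at 9 hr no slope is seen.

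The genes that make and transmit the interferon signal were measured in the same libraries, as a list of 20 that includes Usp18. Ifnb1 itself had its highest mean at 1 hr in both genotypes, while the 42 genes peaked from 3 hr on. It was at 3.61, 3.71, 3.63 and 3.59 in untreated WT cells and at 3.84, 3.77, 3.64 and 3.78 in Cpeb4-/-. At 1 hr it was at 8.09, 7.73, 8.74 and 8.80 in WT and 7.92, 7.34, 7.88 and 7.36 in Cpeb4-/-, which overlapped (−0.71, SE 0.24, adjusted p = 0.096). At 3 hr it was at 7.65, 7.48, 7.99 and 7.53 in WT and 6.90, 6.96, 7.32 and 6.83 in Cpeb4-/-, all below WT (−0.66, SE 0.13, adjusted p = 0.031). By 6 hr the level had dropped in both genotypes and overlapped (0.10). At 9 hr it was lower in Cpeb4-/- again without passing the test, with overlap (−0.58, SE 0.19, adjusted p = 0.090, within-batch differences −0.47 and −0.70). The call at 3 hr was lost in 6 of 15 alternatives, namely without the filter, without the variance trend or without mouse 2, 3, 25 or 62, with differences from −0.77 to −0.55.

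Of the 19 signalling genes tested at 6 hr, 7 were lower and 0 higher, where 9.92% of all genes were lower and 6.4% higher. The 7 were Tyk2 (−0.41), Ikbke, which encodes IKK epsilon (−0.26), Tlr4 (−0.24), Irf7 (−0.22), Stat2 (−0.20), Irf9 (−0.14) and Usp18. Irf7, which drives interferon genes in a later wave, was between 15.34 and 15.52 in WT and between 15.17 and 15.30 in Cpeb4-/-. The receptor genes Ifnar1 (0.06) and Ifnar2 (0.00), Jak1 (0.00), Irf3 (−0.02) and Tbk1 (−0.09) did not pass. At 9 hr Ikbke and Usp18 were lower (3.22% of all genes) and Socs1, an inhibitor of JAK kinases, was higher (0.32, where 4.69% of all genes were higher).

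Other interferon-inducible and LPS-inducible genes give the scale. Of the 15 GBP and IRG genes tested at 6 hr 13 were lower and 0 higher (9.92% and 6.4% of all genes), with a median of −0.39. Tgtp1 (−0.91), Iigp1 (−0.84) and Gbp4 (−0.68) had larger differences than any of the 42 genes. At 3 hr 3 of the 15 were lower (Gbp4, Iigp1 and Tgtp2, 1.87% of all genes) and at 9 hr 2 (Irgm1 and Igtp, 3.22% of all genes). Of 16 early NF-kB target genes, 6 were lower at 6 hr (Tnf, Nfkbiz, Tnfaip3, Zfp36, Icam1 and Cd83) and Cxcl1 was higher (0.70), with a median of −0.13. The shares of all genes at 6 hr are those given for the GBP and IRG genes. These lists were read beside the 42 genes and were not tested against them.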

How the data were processed

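Poly(A) RNA from the 40 libraries was aligned by the authors to mm10 with STAR 2.3.0e, counted per gene with featureCounts and transformed with DESeq2, and the deposited values are rlog, on a log2 scale corrected for library size and shrunken for weakly counted genes. Reads were not used here, so a fold on this scale can understate that of the counts, and the depth and counting error of each value are unknown. No value column was left unused (0). Genotypes were compared at each time with limma 3.58.1 in R 4.3.3 (lmFit, eBayes with trend, 8 libraries), times within a genotype over 20 libraries, and interactions over 40. The tests took genes whose average rlog reached log2 of 5, p-values were adjusted over all of them by the Benjamini-Hochberg method, and genes were called at an adjusted p under 0.05. The fit of the genotypes at 6 hr was tested on simulated data with known changes and independent noise, and the other fits were not. The number of a mouse pairs its libraries by label. Deviations from the group means had a median r of 0.29 between libraries of the same mouse, above 0.1 in 68 of 80 pairs, against −0.09 between different mice. Values in every library were printed for the 4 members with the largest called difference at 6 hr, the 3 earliest and the 3 latest in WT, and those called in the interaction at 6 hr (the rule's other parts, on 0 hr, on 4 or more times and on calls in the minority direction, named no gene), with Usp18 and Ifnb1 added after their values were seen. The members, lists, tests and this rule were chosen with earlier results of these data known. Gene locations and promoters are those of RefSeq on GRCm38.p6, the build of mm10, and the location of all 42 genes was found by gene identifier. The alternatives were the filter, the variance trend, quantile normalization, batch, one fit of 40 libraries with and without the mouse as a block, each mouse left out, and the log2 scale for half-rise times. The ages of the mice are not in the labels.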

Additional observations from a re-analysis of the deposited data

Results flagged for a closer look

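Each group of 4 libraries was examined for a library apart from the others, by the gap to its nearest neighbour over the range of the group. Of the 420 groups (42 genes in 10 groups), 21 (5%) passed Dixon's 95% limit, and chance flags about 1 in 20 groups. Cpeb4-/- mouse 55 was high in 11 of the 21. At 0 hr it stood at 11.85 for Oas3 (the others 11.59 to 11.63), 12.35 for Tor3a and 11.51 for Epsti1. At 1 hr it stood at 12.32 for Ifit2 (the others 12.14 to 12.17) and 11.90 for Parp12. At 3 hr it stood at 15.11 for Ifit2, 13.02 for Oas3 and 12.36 for Pml. At 6 hr it stood at 13.88 for Oas2, 11.94 for Ifi44 (the others 11.47 to 11.52) and 13.41 for Epsti1. These values lie toward those of WT, and without mouse 55 the members lower in Cpeb4-/- were 5 at 0 hr and 35 at 6 hr. The share of all genes without this mouse is not given here. Mouse 62 was low for Oasl1 at 3 hr (13.36) and at 9 hr (13.16), and mouse 2 for Ifih1 at 1 hr (11.82). Among WT mice, mouse 69 was low for Eif2ak2 at 1 hr (11.24) and 3 hr (12.87) and for Rsad2 at 1 hr (13.39), and high for Dhx58 at 9 hr (13.03). Mouse 25 was high for Mx1 at 1 hr (11.62), mouse 88 high for Parp14 at 9 hr (14.79) and mouse 87 low for Ifi44 at 6 hr (12.08).

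The genotypes differed in their response to LPS, by the interaction test, for 3 genes from 0 to 6 hr and for 2 from 6 to 9 hr. The change in Cpeb4-/- minus that in WT was −0.47 for Cmpk2, −0.40 for Trim21 and −0.26 for Samhd1 from 0 to 6 hr, and 0.57 for Cmpk2 and 0.39 for Pml from 6 to 9 hr. The first result of Cmpk2 had an adjusted p of 0.0498 and kept its side of the threshold in 3 of 13 alternatives, that of Samhd1 in 4 and that of Trim21 in 11. From 6 to 9 hr Cmpk2 kept it in 9 and Pml in 10 of 13.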

How the results depend on the processing

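Members lower in Cpeb4-/- at 0, 1, 3, 6 and 9 hr numbered 0, 2, 6, 32 and 5. Without the filter on low values they were 0, 0, 0, 14 and 0, without the variance trend 0, 0, 1, 20 and 1, after quantile normalization 0, 2, 6, 19 and 2, and with batch as a covariate 0, 0, 4, 28 and 13. A stricter filter, a mean rlog of at least 5, moved none of these counts by over 1.5 times. In one fit of all 40 libraries without a block they were 2, 12, 17, 28 and 8, with 1 gene higher at 9 hr, and with the mouse as a random replicate block 5, 15, 17, 31 and 10, with 1 higher at 1 hr and 1 at 9 hr. With 1 mouse left out they ranged from 0 to 5, 0 to 16, 1 to 16, 21 to 35 and 0 to 14, with 0 to 4 higher at 9 hr. Shares of all genes are given above only for the random block and for quantile normalization at 6 hr. The other counts thus do not show a change particular to the members. The causes were not tested.

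For the time course, quantile normalization gave 13 lowered and 4 raised in WT at 1 hr, 9 lowered in Cpeb4-/- at 1 hr, 2 lowered in WT and 6 in Cpeb4-/- from 3 to 6 hr, and 2 and 1 raised from 6 to 9 hr. The count lowered in Cpeb4-/- from 3 to 6 hr was 1 without the filter and 1 without the variance trend, and 1 to 2 with a mouse left out. With 1 mouse left out, 6 to 8 genes were raised in WT at 1 hr, 7 to 9 were raised and 1 to 2 lowered in Cpeb4-/- at 1 hr. With the mouse as a fixed replicate block 13 genes were raised in Cpeb4-/- at 1 hr, the interaction gave 1 gene lower at 3 hr, 10 lower at 6 hr and 9 higher from 6 to 9 hr, and the block moved no other count of the time course by over 1.5 times. Members with a smaller rise in Cpeb4-/- at 6 hr numbered 1 without the filter, 1 after quantile normalization and 0 to 6 with a mouse left out (0 without mouse 62, 6 without mouse 55), and those with a smaller fall from 6 to 9 hr 0 to 2. Shares of all genes for these counts are given above only for the mouse block and for quantile normalization in WT at 1 hr. The median half-rise time on the log2 scale was 2.439 hr in WT and 2.428 hr in Cpeb4-/-, and with a mouse left out 3.094 to 3.366 hr and 3.079 to 3.226 hr.

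At 6 hr 4 genes that had not passed changed sign: after quantile normalization Bst2 (0.0205), Ifitm3 (0.0102), Parp9 (0.0424) and Nmi (0.0462), and Nmi also without mouse 25 (0.0600) or 62 (0.0872), with −0.0616 to 0.0872 over the mice left out. The depth of the libraries is not in the rlog table, so no limit from counting could be given.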
